A study of Mus musculus with 6 samples.

Results

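The collagen chain genes are the genes of the count table whose symbol is Col, a number, a, and a number with nothing after it, and 44 of the 49568 symbols met that rule. Lung RNA was sequenced from 3 TNF-Tg and 3 WT mice, all of them 4-month-old females on the C57BL/6 background per the labels and the study's methods. The TNF-Tg line carries 1 copy of the human TNF gene and develops arthritis and pulmonary hypertension, and the WT mice were littermates without it. The question for each chain was whether its RNA level in whole lung differed between TNF-Tg and WT lungs. A cell type of primary cells is also given in the labels, whereas the methods describe RNA from the isolated lung. The promoter and the cells that drive the transgene are not given in the sources used here.

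Collagens are secreted or membrane proteins in which 3 chains wind into a triple helix, and each chain has a gene of its own. Fibrillar collagens (types I, II, III, V, XI, XXIV and XXVII) form or regulate the banded fibrils of connective tissue, and in lung they are made mostly by fibroblasts and smooth muscle. Type IV collagen forms the sheet-like network of the basement membrane, the thin layer that carries epithelium and endothelium, and in the lung it lies between alveolar and capillary cells. The other types hold fibrils in place, form beaded filaments or short-chain networks, span the cell membrane, or carry antiangiogenic fragments at their ends. Of the 44 genes, 11 encode fibrillar chains, 6 encode type IV chains and 27 encode chains of other types.

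Before the chains, the libraries themselves differed in ways that bear on the values. Totals ran from 25396923 to 30049463 counts in TNF-Tg and from 31400978 to 32529408 in WT, so that a floor of 3 counts corresponded to 0.0882 to 0.131 CPM. CPM are counts scaled to the library size, here after TMM correction for library composition. Mouse Tnf was 4.62, 7.29 and 12.6 CPM in the TNF-Tg lungs and 0.506, 0.444 and 1.03 CPM in the WT lungs; the human transgene was not analysed here. The library of WT 1 stood apart, with a summed level of 10 squamous epithelium markers of 3628 CPM against 12.4 to 32.2 in the other 5 lungs, and of 10 skeletal muscle markers of 2195 CPM against 48.1 to 150.1. In TNF-Tg 1, 5.22% of counts fell on the predicted gene Gm42418 against 0.0774 to 0.274% elsewhere. In TNF-Tg 3 the 8 fat cell markers summed to 179 CPM against 48.9 and 55.7 in the other TNF-Tg lungs and 109 to 214 CPM in WT. The lung label itself held, since all 10 alveolar type 1 markers were detected in every lung, with a summed level of 1883 to 6297 CPM.

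More collagen chains were lower than higher in TNF-Tg lungs, while their summed RNA overlapped between the groups, at 5133, 4616 and 5458 CPM in TNF-Tg and 6362, 6782 and 4775 CPM in WT. Of the 44 genes, 37 had enough counts for testing, and 28 of them (75.7%) were significantly different at a Benjamini-Hochberg adjusted p under 0.05 by edgeR's quasi-likelihood test. Across all 19199 genes tested that share was 47.4%, so the genome-wide background was itself high. Of the 28 chains, 9 were higher in TNF-Tg, against a background of 24% of all genes, and 19 were lower, against 23.4%. The median log2 fold change, TNF-Tg minus WT, was -0.59 over the 37 chains and 0.03 over all genes tested. In 32 of the 37 chains the 3 TNF-Tg values and the 3 WT values did not overlap, 11 with TNF-Tg higher and 21 with TNF-Tg lower, where 58.7% of all genes tested were without overlap, 30.5% with TNF-Tg higher and 28.2% with TNF-Tg lower. A fold change of at least 2 was reached by 21 of the 28 significant chains, and 22.5% of all genes met both criteria. With at least 10 counts asked for in every lung, 33 chains were tested and 25 passed, beside 49.0% of all genes tested with that filter. Col17a1, Col19a1, Col24a1 and Col6a6 were left out by that filter. In each of those 4 only 1 group had all 3 lungs above the low-count cut of 0.325 CPM. The other group had 2 lungs above it, or none for Col19a1, so that passing the filter itself favoured a difference. Without TNF-Tg 1 and WT 1 together, 24 of 37 chains were significant, 6 higher and 18 lower, beside 31.2% of all genes, 13.8% higher and 17.4% lower. In whole-lung RNA, fewer cells of a type and less RNA per cell cannot be told apart.

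**Figure D1:**
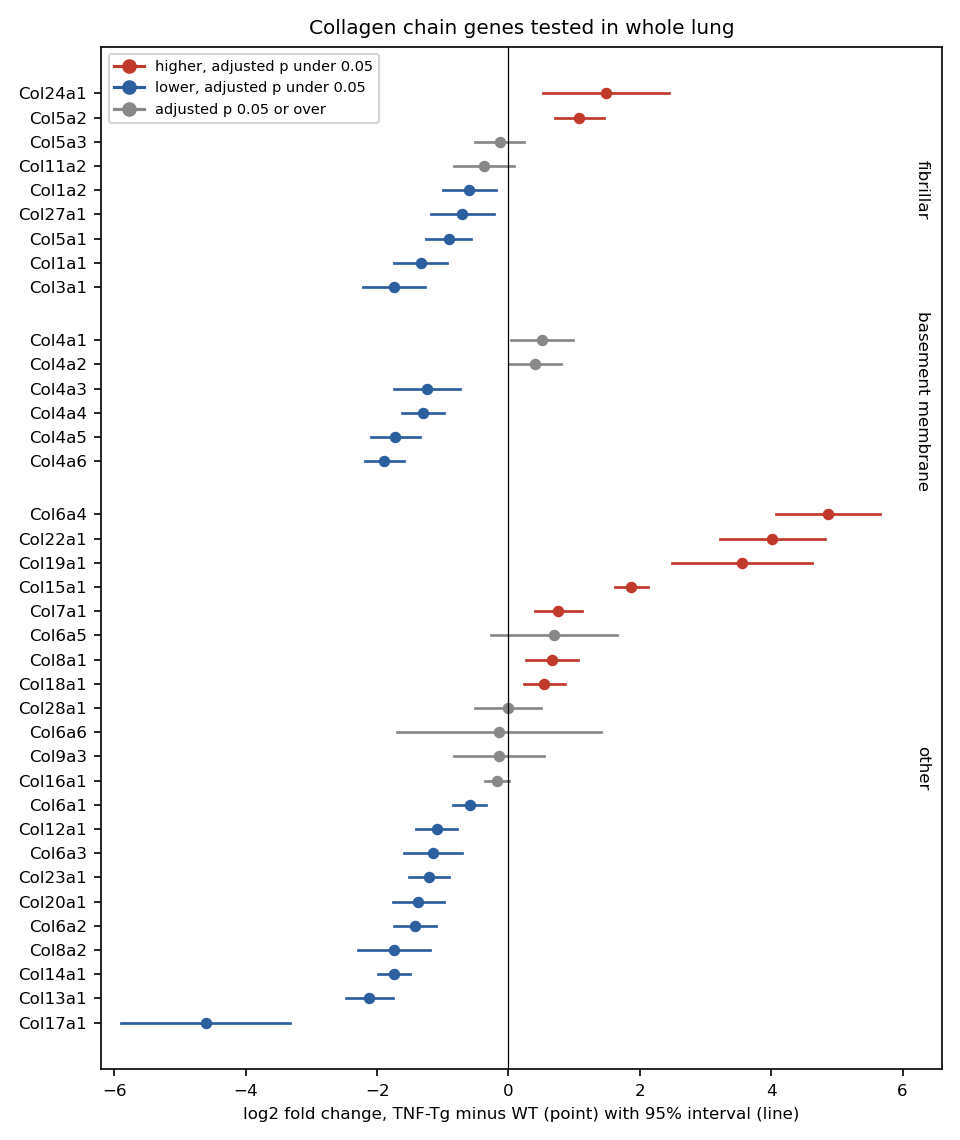
Log2 fold change (TNF-Tg minus WT, x axis) of the 37 tested collagen chain genes, grouped by class, with points for the edgeR estimate and lines for its 95% interval. Red chains were significantly higher, blue chains significantly lower and grey chains passed in neither direction. The values run from -4.61 for Col17a1 to 4.86 for Col6a4.

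By class, fibrillar chains and chains of other types were significant in both directions, and the significant type IV chains were all lower. Of the 9 fibrillar chains tested, 5 were lower, 2 were higher and 2 were not significant, with a median log2 fold change of -0.59. When a change of at least 2-fold was also asked for, 2 fibrillar chains were lower and 2 were higher, where 22.5% of all genes passed in either direction. Among the higher ones, Col24a1 had only 2 WT lungs above the low-count cut. With at least 10 counts in every lung, 8 fibrillar chains were tested, 5 lower and 1 higher, beside 49.0% of all genes significant. All 6 type IV chains were tested, of which 4 were lower, none was higher and 2 did not pass, with a median of -1.27. Of the 22 chains of other types, 10 were lower, 7 were higher and 5 did not pass, with a median of -0.16. The shares that passed were 77.8%, 66.7% and 77.3%, each above the 47.4% of all genes. When the collagens of the zone beneath epithelium (types VII, XV, XVII and XVIII) were counted with type IV, 8 of 10 chains were significant, 3 higher and 5 lower. Type XIX, described below as a basement membrane zone chain, was not in that wider set, and Col19a1 was higher.

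Summed levels gave a different order from the counts of chains, because a few chains hold most of the reads. The fibrillar sum was 1040.2, 973 and 1066 CPM in TNF-Tg and 1980.1, 2333 and 1458 CPM in WT, with no overlap and a ratio of means of 0.533. The type IV sum was 2978, 2593 and 3231 CPM in TNF-Tg and 2685, 2578 and 1793 CPM in WT. Those type IV groups overlapped, although the TNF-Tg mean was 1.25 times the WT mean. With types VII, XV, XVII and XVIII added, the sum was 2850.1 to 3539 CPM in TNF-Tg and 1928 to 2846 CPM in WT, which did not overlap, by a margin of few CPM. The sum over the other types was 1115, 1050.5 and 1162 CPM in TNF-Tg and 1696, 1871 and 1523 CPM in WT, again without overlap, at a ratio of 0.653.

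**Figure D2:**
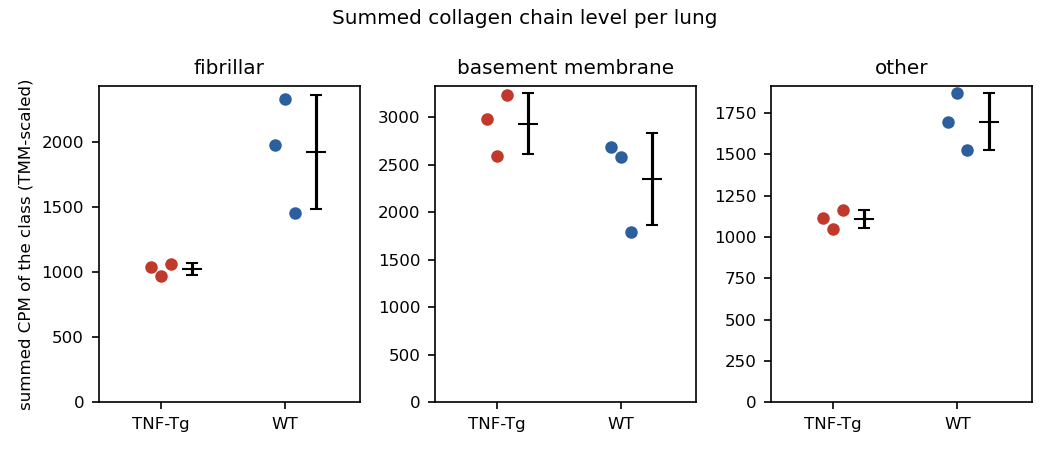
Summed CPM of the chains of each class (y axis, from 0) in each of the 3 TNF-Tg and 3 WT lungs, with bars for the mean and SD of the 3 lungs. The fibrillar and other sums are lower in every TNF-Tg lung than in any WT lung, and the type IV sums overlap.

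As a share of all collagen CPM, type IV made up 57.8% ± 1.53 in TNF-Tg and 39.3% ± 2.57 in WT (SD, n = 3 lungs each). Within type IV, the share of Col4a1 and Col4a2 together was higher in TNF-Tg, at 55.6% ± 1.53 against 34.3% ± 2.44 in WT. The summed share of Col4a3 to Col4a6 was lower in TNF-Tg, at 2.21% ± 0.137 against 4.97% ± 0.124. Shares are parts of one whole, so the type IV share also rises when the fibrillar and other sums are lower, as they were here. Neither Col4a1 nor Col4a2 passed edgeR's test, and the type IV sums overlapped. Fibrillar chains made up 20.3% ± 0.777 in TNF-Tg and 32.0% ± 2.08 in WT, and the other types 21.9% ± 0.760 and 28.7% ± 2.80. None of these shares overlapped between the groups. They are shares of reads, which longer transcripts gain more of, and with 3 lungs against 3 an exact two-sided permutation test cannot go below p = 0.10. Collagen chains together took 0.449 to 0.601% of all counts in TNF-Tg and 0.50 to 0.658% in WT.

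The WT lungs were not alike in collagen. WT 3 was the lowest WT lung in 15 of the 19 chains that were lower in TNF-Tg and in 5 of the 6 type IV chains, whereas WT 2 was the highest WT lung in 11 of the 19. Among the TNF-Tg lungs, replicate 2 was the lowest in 11 of the 19, and replicate 3, the library with more fat cell marker RNA, was the highest in 7 of the 9 chains that were higher in TNF-Tg. Without TNF-Tg 3, 26 of 38 chains were significant, 8 higher and 18 lower, beside 41.9% of all genes, 21.1% higher and 20.8% lower. WT 1, the library with squamous and muscle RNA, was the lowest WT lung in 3 of the 19 and the highest in 5.

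Type I collagen, the main fibrillar collagen of the body, is built from 2 chains of Col1a1 and 1 chain of Col1a2. Col1a1 (chr11:94936224-94953042) measured 215, 186 and 217 CPM in TNF-Tg and 506, 648 and 405 CPM in WT. It was 2.53-fold lower in TNF-Tg, with a log2 fold change of -1.34 ± 0.18 (SE) and an edgeR adjusted p of 0.000577. Col1a2 measured 444, 448 and 426 CPM in TNF-Tg and 696, 800.4 and 495 CPM in WT, also without overlap. Its decrease was smaller, at -0.59 ± 0.18 and an adjusted p of 0.0239, and it was no longer significant in 5 of the 6 fits that left out 1 lung, that without WT 3 being the exception. In those 5 fits its log2 fold change lay between -0.64 and -0.44, with adjusted p of 0.0543 to 0.0877. The unequal change shows within each lung, where the ratio of Col1a1 to Col1a2 per kilobase of transcript was 0.437, 0.373 and 0.459 in TNF-Tg and 0.656, 0.730 and 0.739 in WT.

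Type III collagen, a homotrimer of Col3a1 that mixes with type I in the fibrils of extensible tissues, was the fibrillar chain with the largest decrease. Col3a1 (chr1:45311538-45349706) was 157, 139.8 and 171 CPM in TNF-Tg and 544, 649 and 367 CPM in WT, so that the lowest WT lung lay well above the highest TNF-Tg lung. The log2 fold change was -1.74 ± 0.21, or 3.34-fold lower, with an adjusted p of 0.000319. The ratio of Col3a1 to Col1a1 per kilobase, chosen after the values were seen, fell from 1.06 ± 0.0902 in WT to 0.806 ± 0.0302 in TNF-Tg without overlap (SD, n = 3 each).

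Type V collagen, a minor fibrillar collagen that sits inside type I fibrils and limits their diameter, had chains that went opposite ways. Col5a1 was 63.5, 54.3 and 56.6 CPM in TNF-Tg and 122, 119.7 and 85.4 CPM in WT, so that its difference was -0.91 ± 0.15 on the log2 scale (adjusted p = 0.00159). Col5a2 (chr1:45374321-45503282) was 129.5, 109 and 154 CPM in TNF-Tg and 65.2, 70.1 and 51.1 CPM in WT. It was 2.11-fold higher, at 1.08 ± 0.16 and an adjusted p of 0.00105, and every TNF-Tg lung lay above every WT lung. Col5a3 was 10.7, 13.2 and 12.1 CPM in TNF-Tg and 15, 13.8 and 10.6 CPM in WT, with overlapping groups and a log2 fold change of -0.13 (95% interval -0.50 to 0.24). The ratio of Col5a1 to Col5a2 per kilobase, also chosen after the values were seen, was 0.356 ± 0.0574 in TNF-Tg and 1.38 ± 0.0863 in WT, and did not overlap.

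Col3a1 and Col5a2 are also neighbours on chromosome 1, tail to tail with 24.6 kb between them, and their log2 fold changes were -1.74 and 1.08. The 250 bases before the RefSeq start of Col3a1 (chr1:45311288-45311537, plus strand, GRCm38.p6) are shown because that fibrillar gene fell most, and the capitals mark its one match to TATAAA:
Col3a1: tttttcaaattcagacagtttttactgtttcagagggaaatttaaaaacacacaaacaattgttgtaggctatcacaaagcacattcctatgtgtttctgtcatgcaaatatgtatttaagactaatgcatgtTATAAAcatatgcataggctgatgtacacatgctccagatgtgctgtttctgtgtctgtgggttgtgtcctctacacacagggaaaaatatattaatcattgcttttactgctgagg
No match to CCAAT or GGGCGG lies in that window.

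The remaining fibrillar genes are best known from cartilage and bone. Col24a1, the chain of a fibrillar collagen best known from developing bone, was 1.40, 1.13 and 1.94 CPM in TNF-Tg and 0.285, 0.476 and 0.823 CPM in WT. It was 2.80-fold higher, at a log2 fold change of 1.48 ± 0.41 and an adjusted p of 0.0190, from only 9 to 28 counts per WT library. It could be tested only because of its TNF-Tg counts, with 2 of the 3 WT lungs above the low-count cut. It was not significant without TNF-Tg 3, without WT 1 or without WT 2. Its log2 fold changes there were 1.22, 1.17 and 1.41 (edgeR adjusted p = 0.0766, 0.0558 and 0.0640). Col27a1, a fibrillar chain of cartilage, was lower at -0.70 ± 0.21 (adjusted p = 0.0235) and lost significance without TNF-Tg 1, without TNF-Tg 2 or without WT 3, at log2 fold changes of -0.62, -0.62 and -0.51 (adjusted p = 0.0705, 0.0834 and 0.0666). Col11a2 did not pass the test, at -0.37 (95% interval -0.83 to 0.09), although its groups did not overlap. Col2a1 and Col11a1, chains of the main cartilage fibrils, had at most 10 counts in any lung and were not tested. Of the 10 cartilage markers listed, 8 were in the table and 3 were tested, with Comp higher, Chad lower and Sox9 not significant. Acan, the defining proteoglycan of cartilage, had at most 5 counts in any lung, and the summed level of the list was 11.9 to 24.9 CPM in TNF-Tg and 61.1 to 84.6 CPM in WT, most of it Chad.

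**Figure D3:**
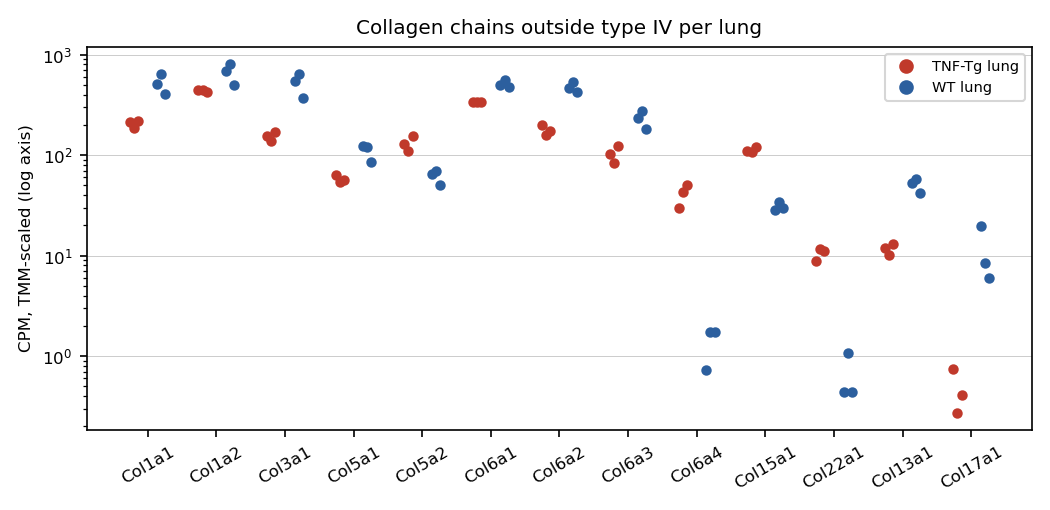
CPM on a log axis (y) of 13 collagen chain genes outside type IV (x) in each lung, red for TNF-Tg and blue for WT. Col5a2, Col6a4, Col15a1 and Col22a1 lie higher in all 3 TNF-Tg lungs, and the other 9 genes lie lower in them.

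Type IV collagen is assembled from 6 chains in fixed combinations. A trimer of Col4a1 and Col4a2 chains is present in nearly all basement membranes, whereas Col4a3, Col4a4 and Col4a5 make the network of the kidney filter and the alveolar wall, and Col4a5 also pairs with Col4a6 in the basement membranes of skin and smooth muscle. In these lungs the 4 chains of the specialised networks were significantly lower, and those of the common network did not pass the test.

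Col4a1 (chr8:11198423-11312826) was 1526, 1237 and 1657 CPM in TNF-Tg and 1183, 1158 and 760.3 CPM in WT. Col4a2 (chr8:11312805-11449287) was 1330.4, 1257 and 1458 CPM in TNF-Tg and 1177, 1088 and 799 CPM in WT. For both genes the lowest TNF-Tg lung was above the highest WT lung, but by little, and neither passed the test. The log2 fold changes were 0.51 (95% interval 0.04 to 0.98, edgeR adjusted p = 0.0707) for Col4a1 and 0.40 (0.01 to 0.79, adjusted p = 0.0865) for Col4a2. With DESeq2 both were significantly higher, at adjusted p = 0.0155 and 0.0310. With robust dispersion in edgeR Col4a1 passed at adjusted p = 0.0489. Leaving out WT 3, the lowest lung, took the difference to 0.33 for Col4a1 and to 0.25 for Col4a2.

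The 4 chains of the specialised networks were all lower. Col4a3 was 42.9, 31.0 and 43.0 CPM in TNF-Tg and 102, 111 and 63.9 CPM in WT, a log2 fold change of -1.25 ± 0.22 (adjusted p = 0.00217). Col4a4 was 52.1, 43.2 and 47.8 CPM in TNF-Tg and 134, 121 and 96.0 CPM in WT, at -1.30 ± 0.14 (adjusted p = 0.000203). The groups were well apart in both. Col4a5 was 20.2, 16.5 and 18.1 CPM in TNF-Tg and 62.4, 71.2 and 47.3 CPM in WT, and was 3.30-fold lower, at -1.72 ± 0.16 (adjusted p = 9.44e-05). Col4a6 was 6.54, 8.18 and 7.21 CPM in TNF-Tg and 26, 29.2 and 26.2 CPM in WT, the largest decrease of the class at 3.70-fold, -1.89 ± 0.13 (adjusted p = 2.19e-05). These 4 chains passed the test in each of the 6 fits that left out 1 lung. An annotated transcript on the opposite strand covers 5.65% of the exon bases of Col4a3.

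**Figure D4:**
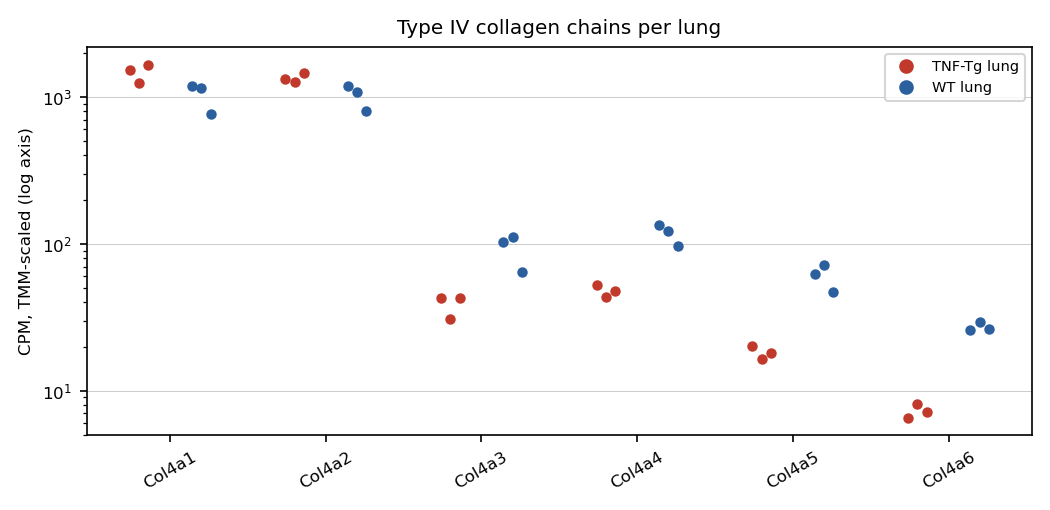
CPM on a log axis (y) of the 6 type IV collagen chain genes (x) in each lung, red for TNF-Tg and blue for WT. Col4a1 and Col4a2 lie slightly higher in TNF-Tg at 760.3 to 1657 CPM, and the other 4 chains lie lower in TNF-Tg, at 6.54 to 134 CPM.

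Relative to the common network, the alveolar wall chains were scarcer in TNF-Tg. The sum of Col4a3 and Col4a4 over the sum of Col4a1 and Col4a2, per kilobase, was 0.0233, 0.0207 and 0.0205 in TNF-Tg and 0.0699, 0.0727 and 0.0711 in WT. That is a 3-lung mean of 0.0215 ± 0.00157 against 0.0712 ± 0.00137 (SD), and in WT each of these chains varied more between lungs, relative to its mean, than the ratio did. Within a pair the ratio did not separate the groups. The ratio of Col4a1 to Col4a2 was 1.06 ± 0.0888 in TNF-Tg and 0.982 ± 0.0554 in WT, that of Col4a3 to Col4a4 was 0.961 ± 0.109 and 0.922 ± 0.147, and both overlapped between the groups. The ratio of Col4a5 to Col4a6, chosen after the values were seen, was 2.58 ± 0.545 and 2.25 ± 0.363 and overlapped as well.

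Each of these pairs lies head to head in the genome, so that the pair shares the sequence between its starts. In the GENCODE annotation on GRCm38, Col4a1 and Col4a2 overlap by 22 bases, Col4a4 and Col4a3 are separated by 71 bases, and Col4a6 and Col4a5 are separated by 1308 bases on chromosome X. The 71 bases between Col4a4 and Col4a3 (chr1:82586850-82586920, minus strand) and the 22 bases common to the first exons of Col4a1 and Col4a2 (chr8:11312805-11312826, plus strand) are shown because the members of each pair had close log2 fold changes, -1.30 and -1.25 for the former pair and 0.51 and 0.40, which did not pass edgeR's test, for the latter. They are RefSeq bases of GRCm38.p6, and the stretch between Col4a4 and Col4a3, all in lower case, holds no match to any of the 3 motifs on either strand. The capitals in the other stretch mark its match to GGGCGG.
Col4a4 and Col4a3: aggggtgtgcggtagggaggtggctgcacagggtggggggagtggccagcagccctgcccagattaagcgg
Col4a1 and Col4a2: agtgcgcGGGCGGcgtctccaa
The ratio plot sets the 3 type IV ratios beside those of types I, V and VI.

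**Figure D5:**
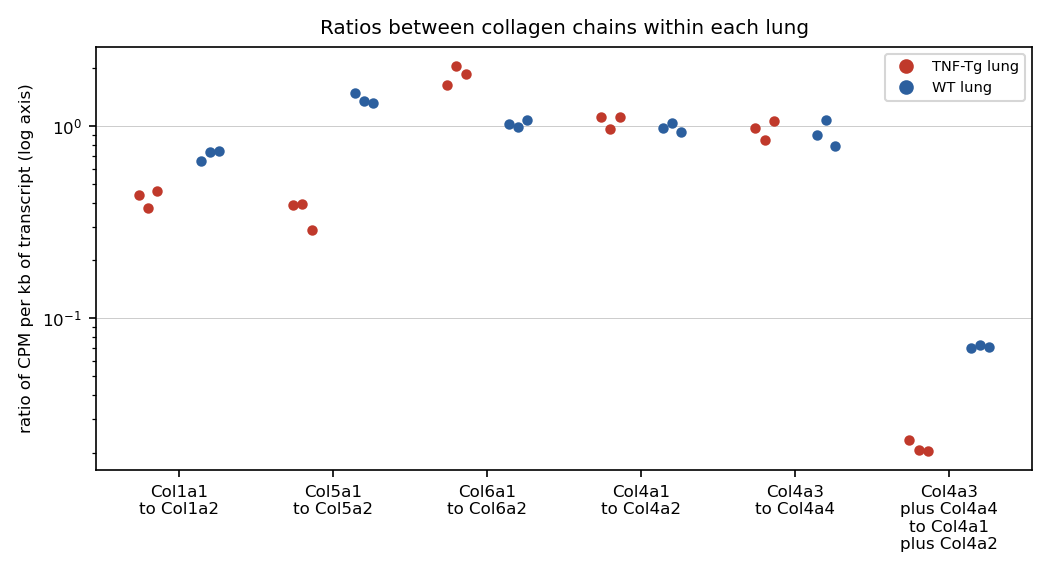
Ratio of CPM per kilobase of transcript between collagen chains (y, log axis) within each lung, red for TNF-Tg and blue for WT. The ratios of Col4a1 to Col4a2 and of Col4a3 to Col4a4 overlap between the groups around 1, and the other 4 ratios do not overlap.

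Levels can be compared between genes only per length. On the scale of CPM per kilobase of the principal transcript, Col4a1 and Col4a2 were the most abundant chains in both groups, at 223 ± 32.5 and 209 ± 15.8 in TNF-Tg and 156 ± 35.9 and 158 ± 30.6 in WT (SD, n = 3). Col6a1 followed at 82.5 ± 0.844 in TNF-Tg and 124 ± 10.2 in WT, together with Col1a2 at 82.2 ± 2.16 and 124 ± 29.1. Col6a2 was at 44.9 ± 5.43 and 120.5 ± 14.8, Col1a1 at 34.7 ± 2.98 and 87.7 ± 20.5, and Col3a1 at 28 ± 2.78 and 93.5 ± 25.6. In WT the levels of Col1a2, Col6a1 and Col6a2 differed by less than their spread, whereas in TNF-Tg Col6a2 lay below the other pair.

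Type VI collagen forms the beaded microfibrils around cells, classically from Col6a1, Col6a2 and Col6a3, of which the first 2 can pair with one of the long chains Col6a3 to Col6a6. Col6a1 was 342, 337 and 335 CPM in TNF-Tg and 498, 556 and 474 CPM in WT, lower at -0.59 ± 0.11 (adjusted p = 0.00291). Col6a2 was 201, 159 and 173 CPM in TNF-Tg and 466, 538 and 422 CPM in WT, lower at -1.42 ± 0.14 (adjusted p = 0.000124). Col6a3 was 103, 82.9 and 124 CPM in TNF-Tg and 235, 272 and 181 CPM in WT, lower at -1.15 ± 0.19 (adjusted p = 0.00164). Thus all 3 classical chains fell without overlap, and by unequal amounts. The ratio of Col6a1 to Col6a3 per kilobase was 7.38 ± 1.5 in TNF-Tg and 4.96 ± 0.678 in WT, and that of Col6a2 to Col6a3 was 3.99 ± 0.711 and 4.78 ± 0.455. Neither overlapped, but by narrow margins. For the former the lowest TNF-Tg lung was 5.94 and the highest WT lung 5.73. For the latter the highest TNF-Tg lung was 4.44 and the lowest WT lung 4.51. The ratio of Col6a1 to Col6a2, chosen after the values were seen, was 1.85 ± 0.203 and 1.03 ± 0.0437. These neighbouring genes lie on the same strand of chromosome 10, 85.2 kb apart.

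Col6a4, a long type VI chain, was the one type VI chain that was significantly higher, and its increase was the largest of the 37 chains. It was 29.9, 42.7 and 50.4 CPM in TNF-Tg and 0.727, 1.74 and 1.73 CPM in WT, a 29.1-fold difference. The log2 fold change was 4.86 ± 0.34 (adjusted p = 2.59e-05) and ran from 4.53 to 5.04 over the alternative analyses. Its ratio to Col6a3 per kilobase, chosen after the values were seen, was 0.493 ± 0.137 in TNF-Tg and 0.00776 ± 0.00395 in WT. Col6a5 and Col6a6 lie beside it in a row on chromosome 9, at gaps of 28.8 and 27.9 kb. Col6a5 was 1.53, 1.13 and 3.00 CPM in TNF-Tg and 1.58, 0.793 and 1.15 CPM in WT, and its difference of 0.69 had an interval from -0.27 to 1.65. Col6a6 was 0.262, 0.684 and 2.16 CPM in TNF-Tg and 1.11, 0.602 and 1.79 CPM in WT, a difference of -0.14 with an interval from -1.69 to 1.41. Both overlapped and neither passed. Col6a5 and Col6a6 share some sequence, 2.36% and 2.42% of their 100-base windows, so that reads between them are slightly uncertain.

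The 158 bases upstream of Col6a4 (chr9:106096784-106096941, minus strand, GRCm38.p6, ending 92 bases before the RefSeq start) are shown because that gene rose most. The capitals mark 1 match to CCAAT and 2 to GGGCGG on the opposite strand, which read CCGCCC here:
Col6a4: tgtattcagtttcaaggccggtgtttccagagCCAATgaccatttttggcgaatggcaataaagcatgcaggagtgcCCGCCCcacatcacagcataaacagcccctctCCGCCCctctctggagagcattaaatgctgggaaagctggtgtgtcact
Antisense and unconfirmed models overlap 1.90% and 1.49% of the exon bases of Col6a4. Whether the counting used strand is not given in the sources used here, and reads from these models in the Col6a4 counts were not tested.

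Of the 4 membrane-spanning collagens 3 were tested, and all 3 were significantly lower, where 23.4% of all genes tested were lower. Col17a1 (chr19:47646344-47692094), a hemidesmosome protein that anchors basal epithelial cells, was 0.742, 0.274 and 0.406 CPM in TNF-Tg and 19.7, 8.37 and 5.97 CPM in WT. The log2 fold change of -4.61 ± 0.56 (24.4-fold lower, adjusted p = 0.000358) was the largest fitted decrease of the 37 chains. It came from 8 to 17 counts per TNF-Tg library, and the gene could be tested only because of its WT counts, since 2 of the 3 TNF-Tg lungs and all 3 WT lungs lay above the low-count cut. WT 1, the library with the squamous markers, held the highest Col17a1 value, and without it the difference was -3.97 (adjusted p = 0.000223). Of the 10 squamous markers 6 were tested, 3 of which (50.0%) were lower and none higher, a share close to the 47.4% of all genes significant. In WT 2 and WT 3 the defining keratins Krt4 and Krt13 had at most 8 counts, and Krt5 had 29 and 60 counts against 4 to 11 in TNF-Tg.

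The stretch upstream of Col17a1 (chr19:47692095-47692292, minus strand, GRCm38.p6, 198 bases ending 52 before the RefSeq start) is shown because this gene had the largest fitted decrease, and the capitals mark 2 matches to TATAAA:
Col17a1: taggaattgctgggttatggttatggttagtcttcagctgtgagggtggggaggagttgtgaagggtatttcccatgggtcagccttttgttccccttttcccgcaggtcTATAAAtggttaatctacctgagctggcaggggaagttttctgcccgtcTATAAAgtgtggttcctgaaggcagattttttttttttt
The other membrane-spanning chains are less tied to epithelium. Col13a1, found at cell junctions and neuromuscular synapses, was 11.8, 10.1 and 13.2 CPM in TNF-Tg and 52.9, 57.7 and 41.6 CPM in WT, 4.34-fold lower at -2.12 ± 0.16 (adjusted p = 3.34e-05). Col23a1 was lower at -1.21 ± 0.13 (adjusted p = 0.000198), and Col25a1 had at most 12 counts in any lung and was not tested.

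Both multiplexins, basement membrane zone proteins whose ends can be released as antiangiogenic fragments, were higher. Col15a1 (chr4:47208161-47313167), which links basement membranes to the fibrils beneath, was 109.6, 108 and 121 CPM in TNF-Tg and 28.5, 34.4 and 29.6 CPM in WT. It was 3.66-fold higher, at 1.87 ± 0.11 (adjusted p = 1.08e-05), and its difference stayed between 1.80 and 1.95 over the alternative analyses. Col18a1, the source of endostatin, was 132, 113 and 139 CPM in TNF-Tg and 90.1, 99.8 and 74.0 CPM in WT. Its increase of 0.54 ± 0.14 (adjusted p = 0.0120) was smaller, and without TNF-Tg 1 it was 0.48 with an edgeR adjusted p of 0.0521. The increase of Col15a1 had the smallest SE of the 9, and the 250 bases before its RefSeq start (chr4:47207762-47208011, plus strand, GRCm38.p6), in lower case throughout, hold no match to any of the 3 motifs:
Col15a1: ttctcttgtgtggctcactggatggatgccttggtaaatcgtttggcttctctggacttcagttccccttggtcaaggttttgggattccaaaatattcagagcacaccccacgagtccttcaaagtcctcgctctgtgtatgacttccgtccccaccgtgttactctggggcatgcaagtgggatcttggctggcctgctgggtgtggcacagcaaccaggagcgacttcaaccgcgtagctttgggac

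Col7a1, the chain of the anchoring fibrils that fasten epithelial basement membranes to the stroma, was 32.1, 36.6 and 46.9 CPM in TNF-Tg and 22.3, 20.7 and 25.4 CPM in WT. It was higher at 0.76 ± 0.15 (adjusted p = 0.00472), opposite in direction to Col17a1, its neighbour in that adhesion complex. The short-chain network chains split. Col8a1, a chain of vessel walls and Descemet's membrane, was 10, 8.25 and 12.2 CPM in TNF-Tg and 6.48, 6.47 and 6.26 CPM in WT, higher at 0.67 ± 0.17 (adjusted p = 0.0135). Col8a2, its partner, was 8.29, 7.29 and 6.09 CPM in TNF-Tg and 20.8, 18.3 and 33.2 CPM in WT, lower at -1.74 ± 0.24 (adjusted p = 0.000674). Neither overlapped between the groups, and Col10a1, the chain of hypertrophic cartilage, had at most 2 counts.

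The FACIT collagens, which decorate the surface of fibrils without forming fibrils themselves, also went both ways. Of 9 genes, 7 were tested, with 2 higher, 3 lower and 2 not significant, where 24% of all genes were higher and 23.4% lower. Col22a1, known from tissue junctions such as that of muscle and tendon, was 8.90, 11.7 and 11.2 CPM in TNF-Tg and 0.443, 1.08 and 0.441 CPM in WT. It was 16.2-fold higher, at 4.02 ± 0.35 (adjusted p = 6.68e-05). Col19a1, a chain of basement membrane zones, had 44, 42 and 26 counts in TNF-Tg and 4, 4 and 3 counts in WT, the last at the floor of 3. Its log2 fold change of 3.55 ± 0.46 (adjusted p = 0.000518) therefore rests on few WT reads, and it could be tested only because of its TNF-Tg counts. The 3 lower chains were Col14a1, a regulator of fibril growth, at -1.74 ± 0.10, Col20a1 at -1.37 ± 0.17 and Col12a1, which bridges fibrils in tissues under tension, at -1.09 ± 0.14, with adjusted p between 1.30e-05 and 0.000404. Col16a1 did not pass, at -0.17 (95% interval -0.36 to 0.02), nor did Col9a3, at -0.15 (-0.83 to 0.54).

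The chains left over carried little RNA. Col28a1, a beaded filament relative of type VI, was 2.22 to 3.23 CPM in TNF-Tg and 2.43 to 2.82 CPM in WT, a difference of -0.01 (95% interval -0.50 to 0.49). Col9a1 had at most 2 counts in any lung, Col9a2 at most 19, and Col26a1 at most 12 except for 43 in WT 3, and none of these was tested. In all, 7 of the 44 genes were not tested, and none of the 44 was at 0 in every lung.

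Motif content of the promoters was compared with all promoters of the same length. RefSeq windows of 250 bases before the start were matched for 35 of the 44 genes (38 windows) and for 32851 windows in all, and both strands were searched. TATAAA was in 13.2% of the collagen windows and 12.4% of all windows, and CCAAT was in 34.2% and 33.8%. GGGCGG, the core of the GC box, was in 57.9% of the collagen windows and 32.7% of all, and the NF-kB motif in 15.8% and 7.25%. The NF-kB share rests on only 6 collagen windows. Of their genes, Col6a4 was significantly higher, Col6a2 and Col27a1 were lower, Col4a2 did not pass, and Col9a1 and Col9a2 were not tested. A match is a description of the letters only.

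The chains must be hydroxylated, folded, trimmed and crosslinked before they become fibrils, and they are bound by receptors and cut by proteases. Of 71 genes listed for these steps, 65 were tested and 39 (60.0%) were significant, 15 higher and 24 lower, where the share over all genes tested was 47.4% (24% higher and 23.4% lower). The shares lay between 50.0% and 57.1%, close to that background, in 5 of the 7 lists, and were 64.3% for hydroxylation and glycosylation and 81.8% for receptors. Among the 14 hydroxylation and glycosylation genes, 3 were higher and 6 lower. Plod2, a lysyl hydroxylase of collagen telopeptides, was 13 CPM in TNF-Tg and 31.6 CPM in WT (-1.29 ± 0.14, adjusted p = 0.000204), whereas P4ha3, a prolyl hydroxylase subunit, was 5.48 and 1.45 CPM (1.92 ± 0.22, adjusted p = 0.000292). Colgalt2, a collagen galactosyltransferase, was lower at -1.15 ± 0.17. Of the 10 chaperone and export genes 3 were higher and 2 lower, among them Serpinh1, the collagen chaperone HSP47, at -0.77 ± 0.23 (adjusted p = 0.0264), Creb3l1, a transcription factor for secretory genes, at -1.22 ± 0.18, and Sec24d, a coat protein of export vesicles, at 0.57 ± 0.10.

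Of the 7 propeptide processing genes tested, 4 (57.1%) were lower, none was higher and 3 did not pass. Pcolce2, an enhancer of the protease that removes the carboxy-terminal propeptide, was 26.7, 18.1 and 22 CPM in TNF-Tg and 206, 248 and 159.7 CPM in WT, 9.22-fold lower at -3.20 ± 0.21 (adjusted p = 1.75e-05). Its relative Pcolce was lower at -1.47 ± 0.10 and the protease gene Tll1 at -1.86 ± 0.35, while Bmp1, the main protease of that step, was not significant at -0.09 ± 0.11. Of the 6 crosslinking genes 2 were lower and 1 higher, with Loxl1, a lysyl oxidase, at -1.11 ± 0.17, Pxdn, the peroxidase that crosslinks type IV collagen, at -0.96 ± 0.17 and Loxl3 at 0.39 ± 0.12. Of the 9 small proteoglycans tested 3 were lower and 2 higher, with Prelp at -1.74 ± 0.20, Podn at -1.35 ± 0.18 and Aspn at 1.67 ± 0.15.

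On the receptor and degradation side, several changes were large. Of the 11 receptor genes tested 6 were lower and 3 higher (81.8% in all, beside 47.4% of all genes). Gp6, the platelet collagen receptor, was lower at -3.14 ± 0.29 from levels of 5.11 CPM in WT and 0.579 CPM in TNF-Tg, Mrc2, the uptake receptor of fibroblasts, was lower at -1.64 ± 0.15, and Lair1, an inhibitory receptor of leukocytes, was higher at 2.71 ± 0.17. Of the 8 degradation genes tested 3 were higher and 1 lower, a share of 50.0% that was close to that of all genes. Mmp9, a gelatinase, was 526, 624 and 451 CPM in TNF-Tg and 14.9, 16 and 19.5 CPM in WT, a log2 fold change of 4.99 ± 0.18 (adjusted p = 2.72e-06). Mmp14, a membrane collagenase, was 331, 375 and 293 CPM in TNF-Tg and 53.1, 45.3 and 46.8 CPM in WT, at 2.78 ± 0.13 (adjusted p = 5.09e-06), and Ctsk, a collagenolytic cathepsin, was higher at 1.16 ± 0.27 (adjusted p = 0.00843).

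Markers of the cells a lung sample can hold were read beside the chains, against the same background of 24% of all genes higher and 23.4% lower. Of 10 fibroblast markers 7 were lower and 1 higher, with a summed level of 734 to 846 CPM in TNF-Tg and 2083 to 2558 CPM in WT. Of 10 smooth muscle and pericyte markers 8 were lower and 1 higher, of 10 endothelial markers 9 were lower and 1 higher (1607 to 1829 against 3193 to 3718 CPM), and all 10 alveolar type 1 markers were lower (1883 to 2237 against 5914 to 6297 CPM). Schwann cell markers gave 6 lower and 1 higher of 9 tested, mesothelium 4 lower of 8, fat cells 2 lower of 7, skeletal muscle 4 lower of 9, and neither of the 2 bone markers tested passed. All 10 myeloid markers were higher, at 10573 to 11392 CPM in TNF-Tg and 3137 to 3175 CPM in WT. Their part in the collagen values was not tested.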

How the data were processed

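Poly(A) RNA from whole lung was sequenced with a stranded kit, single-end. Per the submitters' processing notes the authors used Trimmomatic 0.36, STAR 2.5.2b, featureCounts and GRCm38.p5, and deposited raw gene counts. The annotation and the strand setting of the counting are not given in the sources used here.

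The 19199 genes kept by edgeR's filterByExpr (edgeR 4.0.16, limma 3.58.1, R 4.3.3) were TMM-scaled and tested by the quasi-likelihood test with genotype only, and p-values were Benjamini-Hochberg adjusted over all of them at 0.05. SE is the log2 fold change over the square root of F. Levels per kilobase use the principal transcript of GENCODE. The members, classes and gene lists were chosen with earlier results of these data known. Alternatives included DESeq2 1.42.0, limma-voom, other scalings and filters, and leaving out each lung.

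Replicates are separate mice per the labels, and precision is limited by 3 lungs per group and by totals of 25396923 to 32529408 counts. Values per lung were printed for types I, III, IV, V and VI and for the 2 largest significant changes of each other subclass, and up to 3 genes of each pathway list, the largest significant changes, were named. Bmp1, Col14a1, Col20a1, Col12a1, Col23a1, Col27a1 the single markers and the chains that did not pass were named beyond that rule.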

Additional observations from a re-analysis of the deposited data

How the results depend on the processing

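The number of significant chains was 28 and ran from 24 to 30 over the other tools, scalings, filters and left-out lungs, before a minimum fold change was asked for, while the number of all genes called ran from 6064 to 9164. The genes tested differed between these alternatives. As shares of those tested, the chains ran from 63.6% to 78.4% and all genes from 26.1% to 49.0%. DESeq2 gave 30 of the 44 chains with counts (68.2%), beside 26.3% of all 34744 genes with counts. It shared all 28 with edgeR, which tested 37 chains. Of the 28 chains, 24 passed in all 6 fits without 1 lung, 23 passed in every alternative that tested them, and the sign held in every alternative for 33 of the 37. A minimum absolute log2 fold change of 1 left 4320 genes in all (22.5%, with 10.3% higher and 12.2% lower). It left 4 of 9 fibrillar chains (2 higher, 2 lower) and 21 of 65 pathway genes. Counting types VII, XV, XVII and XVIII with type IV gave 8 significant chains, and without them the log2 ratio of the other types' sum was -0.90 in place of -0.61. Signs turned only in chains that did not pass. Over the fits without 1 lung, Col6a6 ran from -1.28 to 0.31 and Col28a1 from -0.20 to 0.11. Without both TNF-Tg 1 and WT 1, an alternative chosen after seeing the data, Col5a3 was 0.011, Col6a6 0.21 and Col9a3 0.0054, and Col8a1, Col18a1, Col24a1 and Col1a2 no longer passed (adjusted p = 0.0851, 0.0867, 0.0918 and 0.105), at log2 fold changes of 0.65, 0.50, 1.19 and -0.61 against 0.67, 0.54, 1.48 and -0.59 with all lungs. The cause was not tested. No scaling or left-out lung moved the median log2 fold change of all genes by more than 0.04.

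Same-numbered lungs were not treated as pairs. Deviations from the group means correlated at -0.149, -0.004 and -0.242 for same-numbered lungs, and between -0.060 and 0.211 for lungs of different numbers. Deviations from means of only 3 lungs must offset each other, so these values cannot decide whether mice were paired. A fit with the replicate block called 28 of 37 chains, the same 28, and 7686 genes in all (40.0%).

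Depth limits the 7 chains that were not tested and Col19a1, whose WT libraries held 3 or 4 counts.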
